A study of Sus scrofa with 20 samples.

Results

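Gene expression in testis was compared between Duroc and Landrace boars whose sperm had a low DNA fragmentation index (DFI), the share of sperm whose chromatin opens abnormally under acid in a flow cytometry assay. The comparison used 10 of the 20 boars of the series, 5 labelled Norsvin Duroc and 5 labelled Norsvin Landrace (Duroc and Landrace below), all chosen by breed and low DFI group. The boars were used for artificial insemination, 1 testis sample was taken from each after slaughter, and every boar is a separate animal. By the sample labels, DFI was between 1.05% and 1.13% in the Duroc boars and between 0.62% and 1.7% in the Landrace boars. The means were 1.09% ± 0.032 and 1.07% ± 0.49 (SD, n = 5 each). The study itself reports no low-DFI Landrace boar with a DFI as high as 1.7%. Boars are numbered within each group in the order of the sample list.

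The testis makes sperm in seminiferous tubules, where germ cells divide and mature between supporting Sertoli cells, while Leydig cells outside the tubules make androgens. Duroc pigs are red-brown and are bred mainly as terminal sires for meat, whereas Landrace pigs are white and are bred mainly as dams. The comparison asks which genes differ between the testes of these breeds when DFI is low in both. In bulk tissue, fewer cells of a type and less RNA per cell cannot be told apart.

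Of 21306 genes listed for both breeds, 14548 exceeded 1 CPM (read counts scaled to a common library total, so that boars can be compared) in at least 5 of the 10 boars and were tested. Reads assigned to genes were between 34527935 and 51782156 per boar. The defining germ cell markers were abundant in every boar: PRM1, the protamine that packs sperm DNA, stood at 3832 to 5328 CPM in Duroc and 3783 to 5181 CPM in Landrace. CRISP1, an epididymal marker, was at 0.126 CPM or less in each boar. Among the Landrace boars, boars 1 and 2 carry sample numbers of another series than boars 3, 4 and 5 and all Duroc boars, and these 2 also had the higher DFI of 1.7% and 1.5%. The number series and DFI within Landrace therefore cannot be told apart, and the breeds were also compared without those 2 boars. Of the 33 genes named by rule that passed the threshold, 24 passed there too, beside 204 of all 527 genes past the threshold (38.7%). Many of the 33 were picked for a small p and for keeping their direction there, so their share is no independent check. The 9 that did not pass have that adjusted p beside them.

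In total, 527 genes differed between the breeds at an adjusted p under 0.05 (edgeR quasi-likelihood test), which is 3.62% of those tested. Of these, 266 were higher in Duroc (1.83%) and 261 were higher in Landrace (1.79%). At least a 2-fold difference was seen for 81 genes higher in Duroc and 73 higher in Landrace. The median log2 fold change (Duroc minus Landrace) over all tested genes was 0.0034, and the median size among the 527 was 0.67. The breeds did not overlap in CPM for 851 genes (5.85% of those tested) and for 453 of the 527. The first principal component of the 10 boars, with 29.6% of the variance, placed all Duroc boars between 17.5 and 23.3 and all Landrace boars between -25.0 and -16.0, Landrace boars 1 and 2 being the farthest from Duroc. Leaving out any 1 boar other than Landrace boar 3 lowered the number of genes, to between 334 (Landrace boar 5) and 435 (Duroc boar 3). Without Landrace boar 3 the number was 620.

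**Figure D1:**
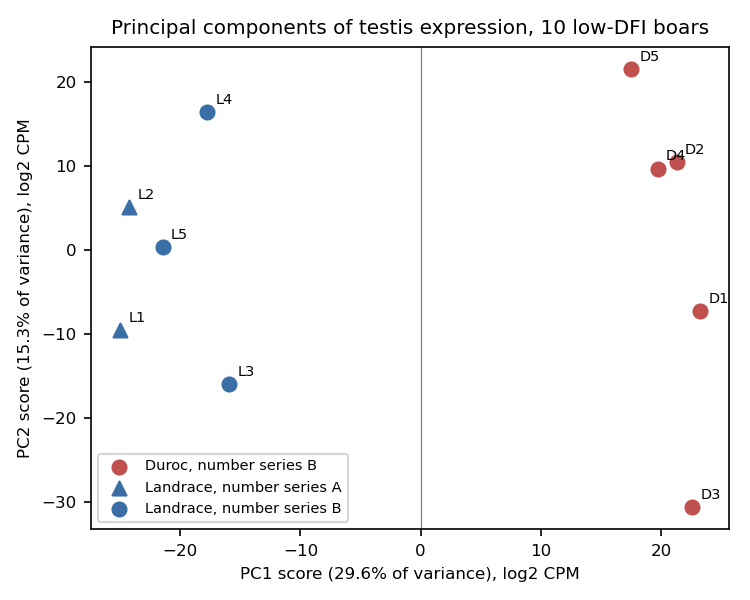
Scores of the 10 low-DFI boars on the first and second principal components of log2 CPM, coloured by breed, with triangles for the 2 Landrace boars (L1 and L2) of the other number series. Duroc boars lie at 17.5 or more on the first component and Landrace boars at -16.0 or less, where the triangles are farthest from Duroc, and on the second component the triangles lie among the other Landrace boars.

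**Figure D2:**
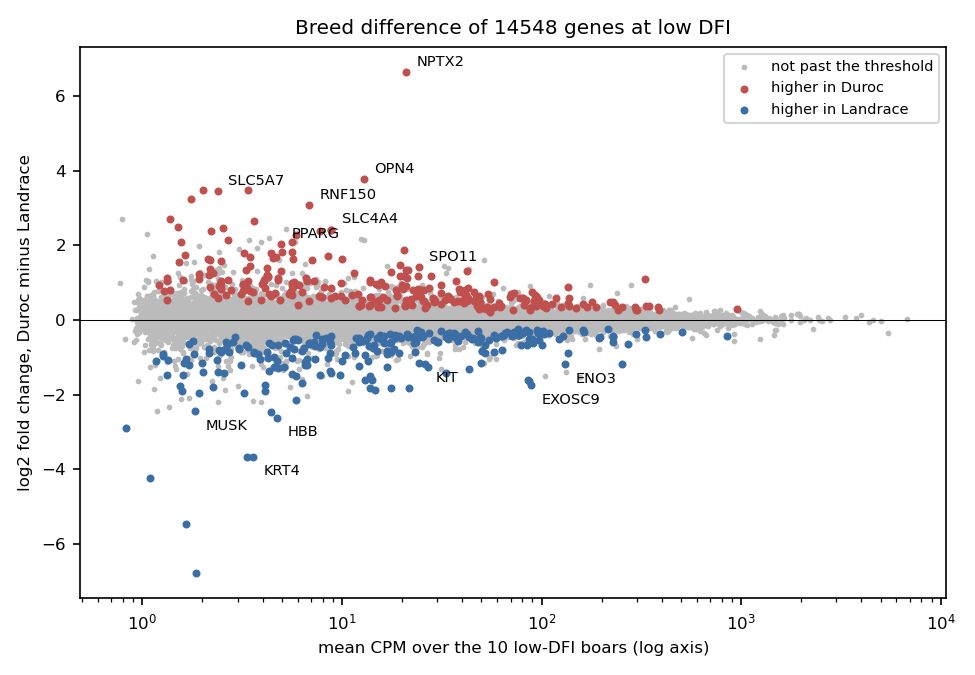
Log2 fold change (Duroc minus Landrace) of each of the 14548 tested genes against its mean CPM on a log axis, with the 266 genes higher in Duroc in red and the 261 higher in Landrace in blue. NPTX2 and OPN4 stand highest among the named genes, and points of both colours occur at low and high expression.

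The most certain difference was in OPN4, which encodes melanopsin, a light-sensitive opsin of retinal ganglion cells. OPN4 stood at 23.2, 24.4, 23.7, 24.8 and 23.9 CPM in Duroc boars 1 to 5 and at 1.71, 1.77, 1.37, 2.17 and 1.72 CPM in Landrace boars 1 to 5. All Duroc boars were thus far above all Landrace boars, with a log2 fold change of 3.78 ± 0.11 (SE), a 13.7-fold difference (adjusted p = 1.04e-08). OPN4 was less uniform in boars with high DFI, where 2 of 6 Duroc boars had 24.9 and 28.4 CPM and the other 4 between 1.76 and 2.99 CPM. The gene ENSSSCG00000010359, which has no symbol and the Ensembl number next to that of OPN4, had 8.28 to 9.64 CPM in Duroc and 1.74 to 2.35 CPM in Landrace (adjusted p = 1.11e-06). At high DFI it had 9.25 and 9.43 CPM in the same 2 Duroc boars and 2.20 to 3.45 CPM in the other 4 (adjusted p = 0.319 between the breeds). The reads carry no strand, and whether reads of 1 of these genes were counted for the other was not tested.

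The largest fold among named genes was that of NPTX2, a secreted pentraxin that clusters glutamate receptors at synapses. NPTX2 was at 44.3, 36.3, 56.4, 25.5 and 45.2 CPM in the Duroc boars and at 0.337, 0.369, 0.51, 0.444 and 0.406 CPM in the Landrace boars. The Landrace boars had hardly any transcript, and the difference was 99.9-fold (log2 6.64 ± 0.24, adjusted p = 3.99e-08). At high DFI the 6 Duroc boars again had 19.9 to 49.8 CPM and the 4 Landrace boars 0.166 to 1.56 CPM (adjusted p = 4.35e-05). A gene with no symbol, ENSSSCG00000023500, had 5.42 to 7.12 CPM in Duroc and 0.461 to 0.672 CPM in Landrace, with a log2 fold change of 3.50 ± 0.15. At high DFI its breeds overlapped (log2 1.11, adjusted p = 0.341).

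Receptors and transporters were among the genes higher in Duroc. SLC4A4, a sodium bicarbonate cotransporter, stood at 14.1, 11.6, 17.5, 14.5 and 16.9 CPM in Duroc and at 3.06, 2.10, 3.13, 2.31 and 3.30 CPM in Landrace. Its breeds were well apart (log2 2.42 ± 0.16, adjusted p = 8.94e-06). EPHA3, a receptor tyrosine kinase for ephrins, had 7.17 to 9.50 CPM in Duroc and 1.86 to 2.92 CPM in Landrace (log2 1.81 ± 0.14, adjusted p = 4.24e-05). PPARG, the nuclear receptor that drives fat cell differentiation, had 9.37, 8.63, 8.51, 6.28 and 6.83 CPM in Duroc and 1.88, 1.41, 2.62, 1.73 and 2.07 CPM in Landrace. Its lowest Duroc value was more than the highest Landrace value, and the fold was 4.09 (adjusted p = 0.000101). PLA2R1, a phospholipase A2 receptor, had 7.54 to 19.9 CPM in Duroc and 1.16 to 4.52 CPM in Landrace (log2 2.40 ± 0.35, adjusted p = 0.00372). Within Landrace, PLA2R1 was lower in the 2 boars of the other number series (log2 -1.28, unadjusted p = 0.00255), and the breed difference without them was 2.02 (adjusted p = 0.0175).

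Further genes with large folds in the Duroc direction varied more between boars. RNF150, a RING finger protein, had 7.24 to 16.9 CPM in Duroc, and in Landrace boar 2 it had 4.43 CPM against 0.458 to 0.966 CPM in the other 4 (log2 3.07 ± 0.56, adjusted p = 0.0118). Without Landrace boar 2 the log2 fold change of RNF150 was 4.09 (adjusted p = 8.69e-05). AMBP, the precursor of alpha-1-microglobulin and bikunin, had 7.75 to 19.8 CPM in Duroc and 0.464 to 6.30 CPM in Landrace. AMBP only just passed the threshold (log2 2.39 ± 0.59, adjusted p = 0.0496), and it no longer did when any boar other than Landrace boar 4 was left out, with adjusted p up to 0.103, or without Landrace boars 1 and 2 together (adjusted p = 0.179).

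Several named genes higher in Landrace are known from skeletal muscle. MUSK, the kinase that organises the neuromuscular junction, was at 2.94, 2.24, 4.17, 3.08 and 3.09 CPM in Landrace and at 0.578, 0.651, 0.370, 0.637 and 0.611 CPM in Duroc. It was 5.42-fold higher in Landrace with no overlap (log2 -2.44 ± 0.20, adjusted p = 6.10e-05). At high DFI the breeds overlapped for MUSK (log2 -1.02, adjusted p = 0.246). ENO3, the muscle form of the glycolytic enzyme enolase, was at 220, 175, 187, 183 and 143 CPM in Landrace and at 79.5, 69.7, 82.7, 74.8 and 96.4 CPM in Duroc. The breeds were again apart, at a log2 fold change of -1.18 ± 0.11 (adjusted p = 0.000219). MYBPC1, the slow form of myosin-binding protein C, had 21.0 to 30.5 CPM in Landrace and 5.50 to 10.4 CPM in Duroc (log2 -1.83 ± 0.20, adjusted p = 0.000665). Chosen after their values were seen, other contractile genes went the opposite way: MYBPH rose in Duroc (log2 1.05, adjusted p = 0.0101), as did TNNT2, cardiac troponin T (log2 0.63, adjusted p = 0.0205), and MYBPC3, the cardiac myosin-binding protein C (log2 0.31, adjusted p = 0.0225). Of 27 tested myosin, troponin, tropomyosin, actinin and related genes taken by symbol, 3 were higher in Duroc and 1 in Landrace, beside 3.62% of all tested genes in either direction.

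ARG2, the mitochondrial arginase that splits arginine to ornithine and urea, had the smallest p after MUSK among the named genes with a symbol higher in Landrace. It was at 101, 94.9, 133, 154 and 161 CPM in Landrace and at 42.9, 44.7, 45.7, 34.4 and 42.7 CPM in Duroc. All Landrace boars were above all Duroc boars (3.05-fold, adjusted p = 0.000155), and Landrace boars 1 and 2 were the lowest of their breed (unadjusted p = 0.00117 between the number series). Without those 2 boars the log2 fold change was -1.81 (adjusted p = 5.29e-05) against -1.61 ± 0.15 with them. ARG2 had a log2 fold change of -0.63 at high DFI (adjusted p = 0.315). ZMYND12, a zinc finger MYND-type protein, had 74.8 to 191 CPM in Landrace and 34.8 to 62.0 CPM in Duroc (log2 -1.62 ± 0.23, adjusted p = 0.0033). NAV3, a neuron navigator protein that binds microtubules, had 20.7 to 52.2 CPM in Landrace and 4.91 to 17.3 CPM in Duroc (log2 -1.83 ± 0.36, adjusted p = 0.0166), but did not pass without Landrace boars 1 and 2 (adjusted p = 0.0987).

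EXOSC9, a subunit of the exosome that degrades RNA, split the Landrace boars. It was at 204, 193 and 180 CPM in Landrace boars 1, 2 and 4 and at 49.4 and 53.2 CPM in boars 3 and 5, whereas the Duroc boars had 39.2, 40.6, 41.1, 40.0 and 43.5 CPM. The lower Landrace values lay close to those of Duroc, with a log2 fold change of -1.74 ± 0.38 (adjusted p = 0.0287). The call was lost on leaving out any boar other than Landrace boars 3 and 5 (adjusted p up to 0.0693), and without Landrace boars 1 and 2 the log2 fold change was -1.18 (adjusted p = 0.158). At high DFI the 4 Landrace boars showed the same 2 levels, 185 and 169 CPM against 44.7 and 44.3 CPM, while the 6 Duroc boars had 39.5 to 43.1 CPM. Of the genes with few reads in Duroc, ENSSSCG00000008734 had 1 to 5 reads in each Duroc boar and 100 to 168 reads in each Landrace boar. The gene ENSSSCG00000028584 had 3 to 6 reads against 76 to 122, but at high DFI it ranged from 0.0227 to 2.82 CPM within Duroc.

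**Figure D3:**
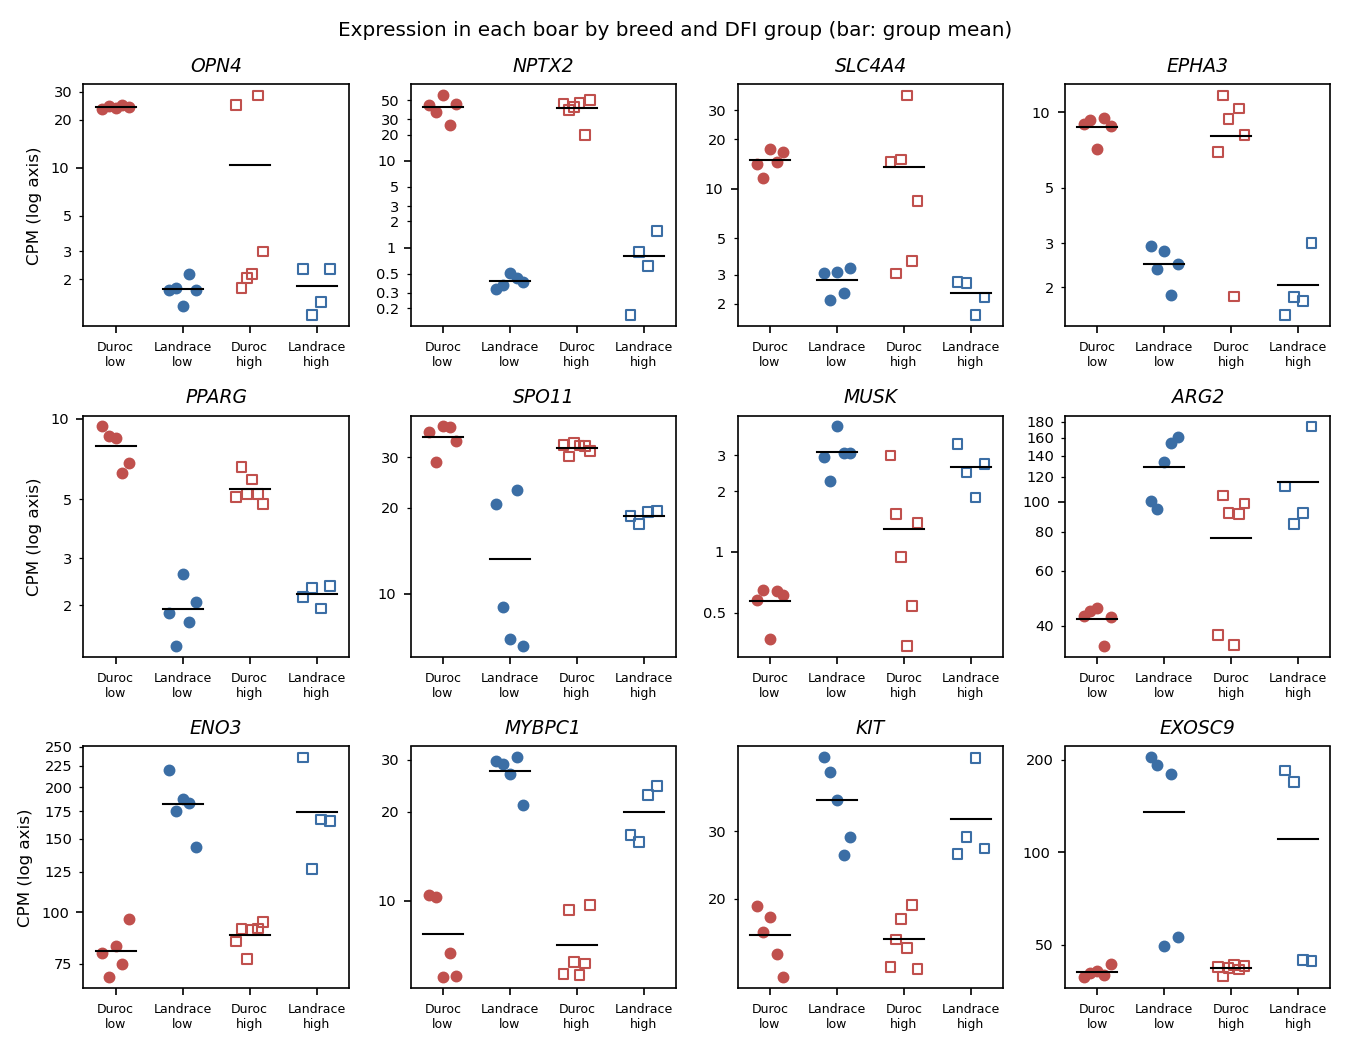
CPM on a log axis of 12 genes in each of the 20 boars, by breed (Duroc red, Landrace blue) and DFI group (low filled circles, high open squares), with a bar for the group mean. The breeds are apart at low DFI in each panel, OPN4 falls into 2 levels among the high-DFI Duroc boars, and EXOSC9 does so among Landrace boars of both DFI groups.

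Germ cell genes differed in single members. KIT, the receptor for stem cell factor on differentiating spermatogonia and on pigment cells, is altered in white pigs, which carry duplicated forms of the gene. KIT was at 19.2, 16.4, 18.0, 14.4 and 12.5 CPM in Duroc and at 46.6, 42.8, 36.2, 26.0 and 28.9 CPM in Landrace. It was 2.25-fold higher in Landrace with no overlap (log2 -1.17 ± 0.18, adjusted p = 0.00548). Landrace boars 1 and 2 had the highest values (unadjusted p = 0.00731 between the number series), and without them the log2 fold change was -0.90 (adjusted p = 0.0322). At high DFI the 6 Duroc boars had 13.2 to 19.3 CPM and the 4 Landrace boars 26.2 to 46.5 CPM (log2 -1.08, adjusted p = 0.00888). KIT was the single member past the threshold among 12 tested spermatogonial genes, which had a median log2 fold change of 0.14, and among 19 tested coat colour and production trait genes, with a median of 0.063. Of all tested genes, 3.62% passed.

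Among 27 tested genes of meiotic spermatocytes, 1 was higher in Duroc and 1 in Landrace, beside 3.62% of all tested genes. The list's median was -0.054, and 8 of the 27 had an unadjusted p under 0.05, beside 19.0% of all tested genes. SPO11, the enzyme that makes the DNA breaks that start meiotic recombination, was at 36.7, 29.0, 38.4, 38.3 and 34.1 CPM in Duroc and at 20.6, 9.03, 6.98, 23.0 and 6.57 CPM in Landrace. Every Duroc boar was above every Landrace boar, but Landrace spread widely (log2 1.42 ± 0.34, adjusted p = 0.0417), and the call was lost on leaving out any boar other than Landrace boars 1 and 4, with adjusted p up to 0.0884, or Landrace boars 1 and 2 together (adjusted p = 0.0896). At high DFI, SPO11 ranged from 30.2 to 33.7 CPM in Duroc and from 17.5 to 19.4 CPM in Landrace (log2 0.75, adjusted p = 0.000349). LDHC, the lactate dehydrogenase of sperm, was lower in Duroc (246 to 286 CPM) than in Landrace (299 to 391 CPM), with a log2 fold change of -0.37 ± 0.08 and an adjusted p of 0.0309. This call was lost on leaving out any of 7 boars (all but Landrace boars 3 and 4 and Duroc boar 4), with adjusted p up to 0.0745, or Landrace boars 1 and 2 together (adjusted p = 0.144). Chosen after their values were seen, MND1, which helps strand exchange (log2 -0.49, adjusted p = 0.0222), RBBP8, which trims broken DNA ends (log2 -0.50, adjusted p = 0.0325), and BARD1, the partner of BRCA1 (log2 -0.60, adjusted p = 0.0487, breeds overlapping), were higher in Landrace, and none of these 3 passed without Landrace boars 1 and 2.

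None of 39 tested spermatid genes passed the threshold, with 4 at an unadjusted p under 0.05, beside 19.0% of all tested genes, and a median of 0.032. The smallest p was that of SPATA19, a mitochondrial protein of the sperm midpiece, with 332 to 432 CPM in Duroc and 428 to 542 CPM in Landrace (log2 -0.31, adjusted p = 0.0932). Likewise, none of 38 DNA break sensing and repair genes passed (6 at an unadjusted p under 0.05, beside the same 19.0%, median -0.0089). The repair gene with the smallest p was LIG4, the ligase of end joining (log2 -0.39, adjusted p = 0.0952). Axonemal dynein and cilia and flagella associated genes were taken by symbol after the results were known, a set not limited to the sperm tail. Of 72 tested, 4 were higher in Duroc and 2 in Landrace, beside 3.62% of all tested genes. SPEF2, needed for the flagellum, had 140 to 211 CPM in Duroc and 82.7 to 106 CPM in Landrace (log2 0.89 ± 0.10, adjusted p = 0.00101). CFAP92 was also higher in Duroc (log2 0.63, adjusted p = 0.0033), whereas the axonemal dynein DNAH11 was higher in Landrace (log2 -1.21, adjusted p = 0.00116).

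Of 16 tested Sertoli cell genes, GATA4, a transcription factor of gonadal somatic cells, was the single one past the threshold, beside 3.62% of all tested genes. The list's median was 0.044. GATA4 was at 26.7, 30.5, 26.0, 40.2 and 33.0 CPM in Duroc and at 17.0, 17.0, 18.9, 19.0 and 17.1 CPM in Landrace. The breeds did not overlap (log2 0.81 ± 0.11, adjusted p = 0.00313), and at high DFI the difference was 0.60 (adjusted p = 0.0115). The Sertoli markers SOX9 (27.3 to 32.5 CPM in Duroc, 26.3 to 34.5 CPM in Landrace) and CLU (log2 0.17, adjusted p = 0.317) did not pass.

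Steroid genes spanned wide ranges within both breeds. Beside 3.62% of all tested genes, 1 of 20 tested Leydig cell genes passed, which was higher in Landrace, and the list's median was 0.090. That gene, CYB5R1, encodes a member of the cytochrome b5 reductase family. It had 152 to 242 CPM in Duroc and 221 to 310 CPM in Landrace, which overlap (log2 -0.59 ± 0.14, adjusted p = 0.0374, exact two-sided permutation p = 0.0238). Its call was lost on leaving out any of 7 boars (Landrace boars 3, 4 and 5 and all Duroc boars but boar 4), with adjusted p up to 0.0903. CYP17A1, the enzyme that leads to androgens, spanned 348 to 3051 CPM in Duroc and 660 to 2043 CPM in Landrace (adjusted p = 0.942). The median Leydig level relative to the Landrace mean was lowest in Duroc boar 3 (log2 -0.69) and highest in Duroc boar 4 (0.56).

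A pair of enzymes of cholesterol synthesis were higher in Duroc among 26 tested genes of synthesis and uptake, whose median was 0.037. No other gene of this list passed, beside 3.62% of all tested genes. DHCR7, which makes cholesterol in the last step of the pathway, was at 9.15, 19.1, 5.76, 11.99 and 7.11 CPM in Duroc and at 2.87, 2.88, 3.99, 4.24 and 3.40 CPM in Landrace. All Duroc boars were higher (log2 1.62 ± 0.29, adjusted p = 0.0115), also at high DFI (log2 2.18, adjusted p = 0.00952), but not past the threshold without Landrace boars 1 and 2 (adjusted p = 0.0929). MVK, mevalonate kinase, had 32.6 to 43.2 CPM in Duroc and 15.8 to 31.8 CPM in Landrace (log2 0.72 ± 0.15, adjusted p = 0.0258), and at high DFI its log2 fold change was 0.38 (adjusted p = 0.403). It did not pass on leaving out Landrace boar 2 or Duroc boar 2, 4 or 5 (adjusted p up to 0.0606), or without Landrace boars 1 and 2 (adjusted p = 0.0845). Of 10 tested genes of steroid and xenobiotic conjugation, EPHX2, the soluble epoxide hydrolase, was the single one past the threshold, beside 3.62% of all tested genes. EPHX2 was at 55.6 to 96.5 CPM in Duroc and 28.6 to 41.8 CPM in Landrace (log2 1.02 ± 0.14, adjusted p = 0.00285).

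Of 14 tested peritubular and smooth muscle genes, SYNPO2, an actin-binding protein of smooth muscle, was higher in Duroc (15.3 to 20.1 against 11.2 to 13.9 CPM, log2 0.50 ± 0.09, adjusted p = 0.0129). SYNPO2 was the single one past the threshold, beside 3.62% of all tested genes, and did not pass at high DFI (adjusted p = 0.290). The list's median was 0.056, and ACTA2, smooth muscle actin, overlapped between the breeds (36.0 to 90.7 CPM in Duroc and 23.7 to 70.05 CPM in Landrace). In the extracellular matrix list, 34 of 42 tested genes had a positive log2 fold change, beside 50.7% of all tested genes, with a median of 0.19. None passed the threshold and 12 were at an unadjusted p under 0.05, beside 19.0% of all tested genes. Without Landrace boars 1 and 2 the median was 0.094. The smallest p there was that of LAMB3, a laminin chain (log2 0.53, adjusted p = 0.111). The median matrix level of single boars overlapped, from -0.16 to 0.54 in Duroc and from -0.17 to 0.31 in Landrace.

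Of 23 macrophage and lymphocyte genes matched, 11 passed the filter on low values and were tested. Among these, LYZ, the antibacterial lysozyme, was the single one past the threshold, beside 3.62% of all tested genes. LYZ had 5.49, 7.39, 6.06, 6.34 and 7.17 CPM in Duroc and 3.37, 2.77, 3.38, 2.84 and 2.99 CPM in Landrace. The breeds did not overlap (log2 1.08 ± 0.12, adjusted p = 0.000665), and the list's median was 0.15. LYZ had a log2 fold change of 0.51 at high DFI (adjusted p = 0.277). Of 18 tested genes of antigen presentation and interferon response, MX2, an interferon-induced antiviral GTPase, was higher in Duroc (1.36 to 6.88 against 0.483 to 0.888 CPM, log2 2.37 ± 0.38, adjusted p = 0.00678), and the list's median was 0.011. MX2 was the single one of that list past the threshold, beside 3.62% of all tested genes. Without Landrace boars 1 and 2, MX2 had an adjusted p of 0.0505. Counts of LYZ, MX2 and the globin HBB could be affected by reads shared with related genes, which was not tested, so their levels are uncertain. Chosen after their values were seen, CD274, the checkpoint ligand PD-L1, was higher in Duroc (1.85 to 3.19 against 0.482 to 1.06 CPM, adjusted p = 0.00207), and GZMK, a protease of cytotoxic lymphocytes, was higher in Landrace (1.50 to 2.63 against 0.476 to 1.14 CPM, adjusted p = 0.00496).

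Of 9 tested blood and endothelial genes, HBB, the beta chain of haemoglobin, was the single one past the threshold, beside 3.62% of all tested genes. HBB was higher in Landrace, and the list's median was 0.21, or 0.068 without Landrace boars 1 and 2. HBB was at 16.9, 4.49, 7.39, 10.23 and 1.70 CPM in Landrace and at 1.49, 0.840, 0.793, 1.94 and 1.67 CPM in Duroc. Landrace boar 5 lay within the Duroc range (log2 -2.61 ± 0.52, adjusted p = 0.0194), and the call was lost on leaving out Duroc boar 2 (adjusted p = 0.0510) or Landrace boars 1 and 2 together (adjusted p = 0.0601). ALB, the liver albumin transcript, had 1.24 to 4.94 CPM in Landrace and 0.661 to 1.08 CPM in Duroc (adjusted p = 0.127), and the endothelial gene PECAM1 overlapped (15.4 to 29.1 and 13.0 to 35.2 CPM). The part of residual blood in other differences was not tested.

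No gene passed the threshold among 23 tested antioxidant genes (4 at an unadjusted p under 0.05, median -0.061) or 19 immediate early and stress genes (2 at an unadjusted p under 0.05, median 0.016), beside 19.0% of all tested genes at an unadjusted p under 0.05. The smallest p in these lists were those of TXN2, mitochondrial thioredoxin (log2 -0.25, adjusted p = 0.143), and IER3 (log2 -0.57, adjusted p = 0.16). The 13 genes of the mitochondrial genome were all lower on average in Duroc, with a median of -0.36, but none passed, also unadjusted. COX1, a subunit of cytochrome oxidase, had the smallest p, with 2924 to 6155 CPM in Duroc and 5283 to 7636 CPM in Landrace (log2 -0.34, adjusted p = 0.33). At high DFI the median of these genes was -0.63 and 10 of 13 passed, beside 3.66% of all tested genes. Breed and number series cannot be told apart at high DFI. Over all lists, 12 of 354 genes passed, 8 higher in Duroc and 4 in Landrace, against 3.62% of all tested genes.

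**Figure D4:**
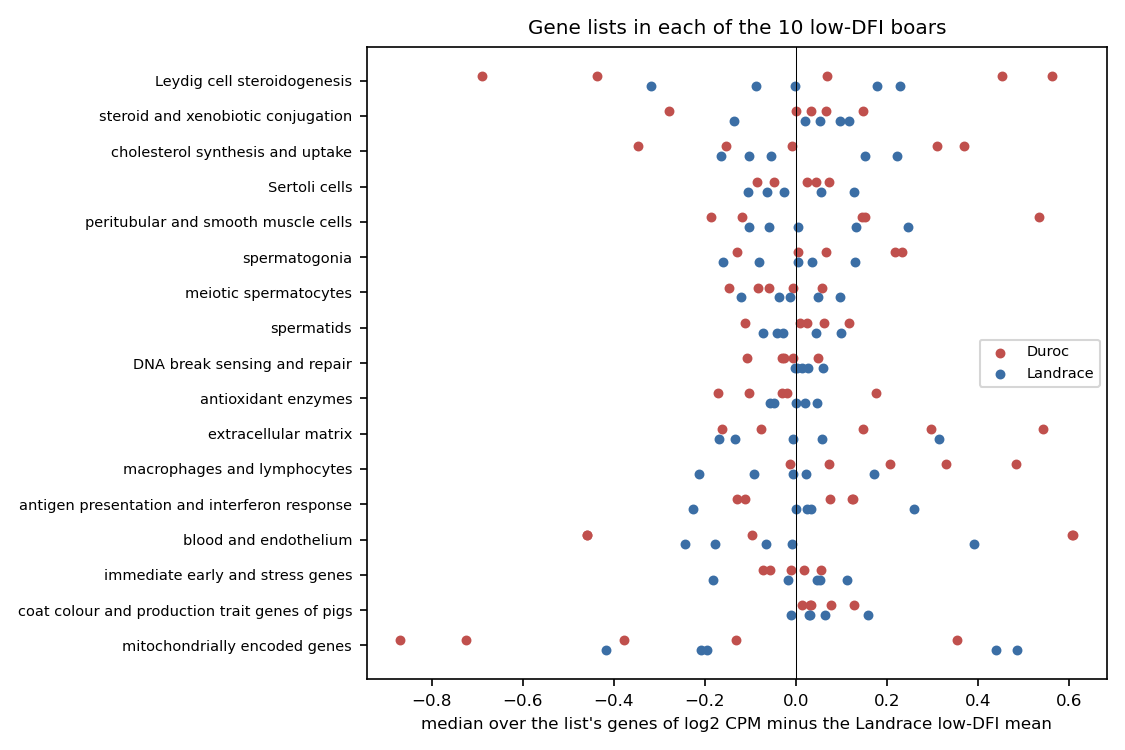
Median over each list's tested genes of log2 CPM minus the Landrace low-DFI mean, with 1 point per boar (Duroc red, Landrace blue). The breeds overlap in each of the 17 lists, and the Leydig cell, blood and endothelium and mitochondrial lists spread most widely.

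Other groups of transcripts were examined after the results were known. Of 211 tested solute carriers, 12 were higher in Duroc and 8 in Landrace (9.48%, beside 3.62% of all tested genes; the difference was not tested). SLC5A7, the choline transporter, had 1.42, 6.30, 1.80, 10.98 and 1.36 CPM in Duroc and 0.0922 to 0.732 CPM in Landrace (log2 3.46 ± 0.70, adjusted p = 0.0199). The metal transporters SLC39A4 (log2 1.41, adjusted p = 0.00213) and SLC39A8 (log2 1.25, adjusted p = 0.0475) were higher in Duroc too. SLC38A3, an amino acid transporter (log2 -0.85, adjusted p = 0.0382), and SLC37A4, the glucose-6-phosphate transporter (log2 -0.35, adjusted p = 0.00728), were higher in Landrace. HGF, the hepatocyte growth factor, was higher in Landrace (5.54 to 10.4 against 1.83 to 4.31 CPM, log2 -1.25 ± 0.24, adjusted p = 0.0154), while its receptor MET was higher in Duroc (3.16 to 5.10 against 1.45 to 2.84 CPM, log2 0.96 ± 0.19, adjusted p = 0.0193). KRT4, an epithelial keratin, had 8.63, 13.3, 2.16, 1.55 and 7.63 CPM in Landrace and 0.317 to 0.833 CPM in Duroc (log2 -3.66 ± 0.59, adjusted p = 0.00634). Without Landrace boars 1 and 2, SLC5A7 (adjusted p = 0.124), SLC39A8 (adjusted p = 0.127), SLC38A3 (adjusted p = 0.116), MET (adjusted p = 0.0706), MYBPH (adjusted p = 0.0657), TNNT2 (adjusted p = 0.0929) and MYBPC3 (adjusted p = 0.0821) did not pass.

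The positions of the genes were compared by their order along the chromosomes. Of 9523 tested genes with a symbol, 8880 could be placed in the order of the RefSeq gene table of another build, and 327 of these passed. No 3 neighbours in a row passed in the same direction, and 6 pairs did. The 3.62% of all tested genes past the threshold is a share of single genes and not of pairs. The pairs are therefore listed and not read as clusters. Genes without a symbol were not placed, so other tested genes can lie between these neighbours. Whether 6 pairs are more than chance gives was not tested. Higher in Duroc were the pairs SLC1A1 and GLIS3, GBA2 and RGP1, DGKD and USP40, and ADCY3 and NCOA1. The pairs PLA1A and ADPRH and TUFT1 and POGZ were higher in Landrace. SLC1A1, a glutamate transporter, had the largest fold among them (log2 1.03, adjusted p = 0.00476).

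Comparing the 5 Duroc boars with the 3 Landrace boars of the same number series left 251 genes (1.73%), of which 204 were among the 527. These were 38.7% of the 527 and 81.3% of the 251, and both comparisons use the same 8 boars, so that they are not independent. Between the number series within Landrace, 1393 genes had an unadjusted p under 0.05 (9.58%) and 1 passed after adjustment (0.00687%). That gene was SYTL3, a synaptotagmin-like protein, with 13.5 and 13.9 CPM in Landrace boars 1 and 2 and 3.24, 3.35 and 2.53 CPM in boars 3, 4 and 5 (log2 2.21, adjusted p = 0.0494). SYTL3 lay between these in Duroc, at 7.96 to 10.4 CPM. It did not pass between the breeds over all boars (adjusted p = 0.793), but passed against boars 3 to 5 alone (log2 1.58, adjusted p = 0.000776). The 4 high-DFI Landrace boars, of the same number series as boars 1 and 2, had 6.48 to 9.996 CPM of SYTL3. Whether SYTL3 follows the number series or DFI within Landrace was not tested. Of the 527 genes, 47 (8.92%) had an unadjusted p under 0.05 between the number series.

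The breeds were also compared in the other boars, 6 Duroc and 4 Landrace with high DFI, in which all Landrace boars carried numbers of the same series as Landrace boars 1 and 2. Breed and number series therefore cannot be told apart at high DFI. There 533 of the same genes passed (3.66%), 191 of them among the 527, which is 36.2% of the low-DFI genes and 35.8% of the high-DFI genes. All 191 had the same direction, as had 523 of the 527, against 73.9% of all tested genes. Of the 33 genes named by rule that passed at low DFI, 16 passed at high DFI and 17 did not. With adjusted p in brackets, the 17 were OPN4 (0.158), SLC4A4 (0.0533), MUSK (0.246), ARG2 (0.315), LYZ (0.277), MX2 (0.183), SYNPO2 (0.290), NAV3 (0.168), MVK (0.403), EXOSC9 (0.0527), LDHC (0.258), CYB5R1 (0.124), AMBP (0.191), ENSSSCG00000023500 (0.341), ENSSSCG00000010359 (0.319), ENSSSCG00000028584 (0.910) and ENSSSCG00000028503 (0.765). The breed differences of low and high DFI did not share boars, and no gene passed a test of the difference between them (edgeR breed by DFI interaction, 368 at an unadjusted p under 0.05; 2 passed with the likelihood ratio test). The 2 genes with the smallest interaction p have no symbol, and their log2 breed differences were 3.49 and 1.47 in the first and -1.43 and -0.10 in the second at low and high DFI. ABLIM1, an actin-binding LIM protein chosen after its values were seen, had a log2 fold change of 1.34 (adjusted p = 0.00101) at low DFI and 0.34 (adjusted p = 0.291) at high DFI.

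**Figure D5:**
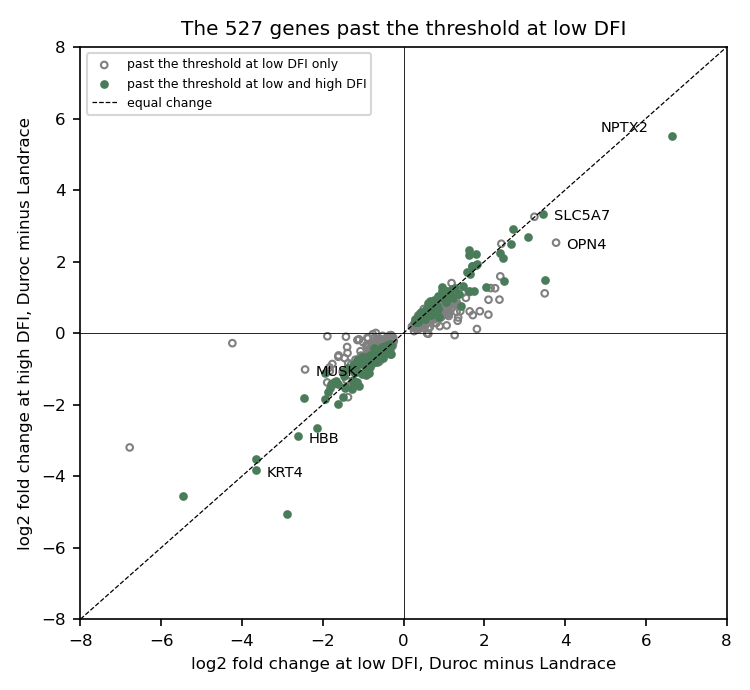
Log2 fold change (Duroc minus Landrace) at high DFI against that at low DFI for the 527 genes past the threshold at low DFI, filled where the gene also passed at high DFI (191 genes). All but 4 points lie in the quadrants of equal sign, and most open points lie between the dashed line of equal change and 0 on the vertical axis.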

How the data were processed

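Testis RNA of each boar was sequenced as 50-base single reads from a kit that keeps no strand. Per the labels and the study's methods, the authors aligned reads to pig genome build 10.2 with TopHat2 2.0.12, processed them with SAMtools 1.1 and counted them per Ensembl release 75 gene with HTSeq without strand; the deposited values are read counts, in which the lowest value is 1 (how 0 became 1 is not given in the sources used here). Both breeds were aligned to 1 assembly, so a breed difference in sequence could change a count, which was not tested. Counts are not corrected for gene length, so levels are compared between boars and not between genes.

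The 342 genes listed for Landrace only and the 411 for Duroc only were left out. Genes that exceeded 1 CPM in 5 or more of the 10 boars were normalised by TMM and tested with edgeR 4.0.16 (quasi-likelihood F-test, R 4.3.3), with Benjamini-Hochberg adjustment over all 14548 genes and a threshold of 0.05. CPM values (counts per 1000000) use the reads of the genes listed for both breeds. The code was tested on simulated data. Single values used exact two-sided permutation tests on log2(CPM + 0.5), whose smallest p with 5 against 5 boars is 0.00794. Symbols came from the gene name table (9523 of the tested genes). Replicates were separate boars. Between pairs of boars of 1 group, the variance of counts was 23.0 to 68.6 times that of sampling noise (chi-square per degree of freedom). A difference in total reads between the breeds was not detectable (exact permutation p = 0.111).

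Named genes were, in each direction, the 12 smallest p and the 6 largest folds (mean of at least 5 CPM) among genes past the threshold whose breeds did not overlap and that kept their direction without Landrace boars 1 and 2, then list members past the threshold (up to 6 a list) or the smallest p of a list with none, runs of at least 3 neighbours, the 3 smallest p between number series and the 2 smallest interaction p. Genes without a symbol were named only among the smallest p, at most 2 a direction. The members, gene lists and rules were chosen with earlier results of these data known. Alternatives were the likelihood ratio test, DESeq2 1.42.0, limma 3.58.1 voom with quality weights, other normalisation and filters, the number series as covariate, a joint fit of all 20 boars and leaving out each boar.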

Additional observations from a re-analysis of the deposited data

Results flagged for a closer look

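Within the groups of 5 low-DFI boars, single boars stood apart from the other 4 for 11 genes by Dixon's criterion, which chance alone meets in about 1 of 20 groups, out of 130 groups examined. Landrace boar 2 was highest for RNF150 (4.43 CPM) and SYNPO2 (13.9 CPM) and lowest for GZMK (1.50 CPM). Landrace boar 3 was highest for CFAP92 (90.6 CPM) and for ENSSSCG00000028584 (2.83 CPM). Duroc boar 4 was lowest for ARG2 (34.4 CPM) and highest for LDHC (286 CPM). Duroc boar 3 was lowest for MUSK (0.370 CPM) and for EPHA3 (7.17 CPM), Duroc boar 1 was highest for ZMYND12 (62.0 CPM), and Duroc boar 5 was lowest (0.639 CPM) for a gene without a symbol that had a small p between the number series.

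Among genes listed for Duroc only, TIFA, an adaptor of innate immune signalling, had up to 58 reads and ENSSSCG00000030298 up to 69 reads in a low-DFI Duroc boar. The latter had 1, 60, 48, 1 and 69 reads in Duroc boars 1 to 5. These were the 2 such genes above 20 reads, and no gene listed for Landrace only exceeded 8 reads.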

How the results depend on the processing

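The 527 genes became 800 with the likelihood ratio test (403 higher in Duroc, 397 in Landrace), 1174 with DESeq2 (568 and 606) and 810 with limma voom (411 and 399). They became 300 with the number series as covariate (148 and 152), 251 without Landrace boars 1 and 2 (128 and 123), and 154 at a log2 fold change of at least 1 in size (81 and 73). Leaving out 1 boar at a time gave 334 to 620 genes, 161 to 325 higher in Duroc and 172 to 295 in Landrace, and fell by more than 1.5 times without Landrace boar 1 (338), Landrace boar 5 (334) or Duroc boar 1 (338). RLE normalisation, the other filters, values of 1 set to 0 and the joint fit of 20 boars stayed within 1.5 times. The 533 genes at high DFI became 862 in the joint fit. With the likelihood ratio test, 81 genes passed between the number series and 2 passed the breed by DFI interaction. Of the 33 named genes past the threshold, 22 passed under each of the 20 alternatives that tested them and none reversed; the 11 that were lost somewhere are MX2, DHCR7, SYNPO2, NAV3, HBB, MVK, EXOSC9, LDHC, CYB5R1, SPO11 and AMBP. SYNPO2 was lost in the joint fit of 20 boars (adjusted p = 0.208). The cause of these changes was not tested, beyond the smaller number of boars. List medians moved by up to 0.00154 under RLE and by up to 0.14 without Landrace boars 1 and 2 (blood and endothelium). No paired analysis was possible because the labels give the breeds no shared replicate numbers.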
